A study of Mus musculus with 7 samples.

Results

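Cycling T cells are described here in the inflamed central nervous system of mice: cells that carry Cd3 transcripts and transcripts of genes used in cell division. Of 13922 barcodes in 7 single-cell libraries, 13632 had at least 200 genes and at most 10% mitochondrial UMIs (unique molecular identifiers, each marking 1 captured transcript). Of these, 6495 were Cd3 cells, with at least 2 UMIs of Cd3d, Cd3e and Cd3g together and at most 120 UMIs of the myeloid genes Lyz2, C1qb and Cd74 per 10000. A Cd3 cell was called cycling when at least 2 of the 5 genes Mki67, Top2a, Birc5, Ube2c and Cdk1 had a UMI, which held for 337 cells and left 6158 other Cd3 cells. The members were thus chosen by their own counts of these 5 genes.

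All mice were of the B6 background and had been immunized with the myelin peptide MOG35-55 to induce experimental autoimmune encephalomyelitis (EAE), in which T cells enter the brain and spinal cord. The groups were Lag3KO_CD4 (n = 2 libraries) and WT_CD4 (n = 2), from cells enriched with CD4 beads, and Lag3KO_CD45 (n = 1) and WT_CD45 (n = 2), from cells enriched with CD45 beads, all taken at the peak of disease. The Lag3KO mice lack LAG3, an inhibitory receptor of T cells, and their genotype label reads Lag3Floxed; no Cre line and no age of the mice is stated there. Each group had 5 mice, matched for age and sex and with like disease scores, and the labels do not say which mice entered which library, so p-values measure only the spread between these libraries, which may be technical.

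Libraries held 4585251 to 18940186 UMIs. Lag3 UMIs in Cd3 cells numbered 0 in each of Lag3KO_CD4 1, Lag3KO_CD4 2 and Lag3KO_CD45 1, against 223 in WT_CD4 1, 46 in WT_CD4 2, 94 in WT_CD45 1. The library labelled WT_CD45 2 had 0, so that its Lag3 level goes against its label. Cd3 cells of the CD4 libraries held Xist at 951.8 to 1032.9 CPM (UMIs per 1000000) and no Ddx3y, and those of the CD45 libraries held Ddx3y at 58.9 to 70.4 CPM and no Xist. Enrichment, sex and processing run together in these libraries and cannot be told apart, so no test was made between CD4 and CD45 libraries. Pairs of libraries shared 0 to 12 barcodes, none of them of 2 cycling cells.

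A T cell that meets its antigen leaves rest, copies its DNA in S phase and then condenses and separates its chromosomes in the G2 and M phases. S phase genes, such as those of the replicative helicase and of nucleotide synthesis, are known to be driven by E2F factors. Genes of the G2 and M phases are known to be switched on later, through a promoter element called the cell cycle genes homology region (CHR) and through CCAAT boxes bound by NF-Y. In EAE, proliferation of conventional and regulatory T cells in the nervous system is a known feature of the peak of disease.

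The promoters of the 5 genes that define the cycling cells are shown because all 5 act late in the cycle. Each run holds the 250 bases before the start of the gene in RefSeq, 5′ to 3′ on the strand of the gene, in build GRCm38.p6, and capitals mark CHR matches (TTTGAA or, on the other strand, TTCAAA) and CCAAT boxes (CCAAT or ATTGG). Mki67, which coats mitotic chromosomes, lies at chr7:135716380-135716629 on the minus strand. Top2a, which untangles DNA, lies at chr11:99024190-99024439 on the minus strand. Ube2c, a ubiquitin-conjugating enzyme of mitotic exit, lies at chr2:164769679-164769928 on the plus strand. Cdk1, the kinase that starts mitosis, lies at chr10:69352913-69353162 on the minus strand, and Birc5, a subunit of the chromosomal passenger complex, at chr11:117848987-117849236 on the plus strand.
Mki67: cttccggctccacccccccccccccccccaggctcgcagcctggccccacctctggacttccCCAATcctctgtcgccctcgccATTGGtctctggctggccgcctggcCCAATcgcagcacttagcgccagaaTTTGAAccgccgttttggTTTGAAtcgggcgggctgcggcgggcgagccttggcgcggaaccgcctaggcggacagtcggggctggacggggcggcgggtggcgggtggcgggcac
Top2a: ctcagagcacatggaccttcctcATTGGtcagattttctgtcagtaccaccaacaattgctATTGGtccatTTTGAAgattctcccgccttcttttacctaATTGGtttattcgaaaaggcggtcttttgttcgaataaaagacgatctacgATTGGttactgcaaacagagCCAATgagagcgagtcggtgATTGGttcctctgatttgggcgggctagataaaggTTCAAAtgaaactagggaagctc
Ube2c: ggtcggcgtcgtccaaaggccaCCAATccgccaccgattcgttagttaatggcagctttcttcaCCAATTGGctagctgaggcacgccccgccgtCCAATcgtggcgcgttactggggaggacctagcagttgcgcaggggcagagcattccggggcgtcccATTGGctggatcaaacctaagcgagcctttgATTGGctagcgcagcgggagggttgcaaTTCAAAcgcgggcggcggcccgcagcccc
Cdk1: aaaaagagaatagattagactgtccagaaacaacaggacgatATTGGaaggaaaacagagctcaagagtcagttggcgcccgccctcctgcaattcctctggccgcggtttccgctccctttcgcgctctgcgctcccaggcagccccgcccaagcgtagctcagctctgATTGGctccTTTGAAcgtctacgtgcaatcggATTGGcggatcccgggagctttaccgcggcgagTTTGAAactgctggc
Birc5: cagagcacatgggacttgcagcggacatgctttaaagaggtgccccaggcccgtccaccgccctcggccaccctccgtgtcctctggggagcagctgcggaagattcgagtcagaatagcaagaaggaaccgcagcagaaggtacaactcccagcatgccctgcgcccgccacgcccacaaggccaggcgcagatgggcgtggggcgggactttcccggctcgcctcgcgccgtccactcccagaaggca

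The Mki67 run held 2 CHR matches and 3 CCAAT boxes, Top2a 2 and 6, Ube2c 1 and 6, Cdk1 2 and 3, and Birc5 neither motif in these letters. The CHR match nearest the start began 15 bases before it in Cdk1, 23 in Top2a, 29 in Ube2c and 98 in Mki67. Over windows that also took in the 50 bases after the start, 17.9% of 32851 mouse promoters held a CHR match, 37.4% a CCAAT box and 6.95% both. Among other genes of the G2 and M phases, 42 of 51 had a promoter counted here. For the lists, promoters on 1 chromosome were left out and 1 promoter was taken per gene, unlike for all promoters. Of the 42, 30 (71.4%) held a CHR match, 32 (76.2%) a CCAAT box and 24 (57.1%) both. Of 26 S phase genes with a promoter, 4 (15.4%) held a CHR match and 17 (65.4%) a CCAAT box. An E2F motif (GCGGGAA on either strand) was in 10 S phase promoters (38.5%), in 0 of the 42 G2 and M phase promoters and in 4.6% of all promoters. These matches describe the letters only.

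Cycling cells were a small share of the Cd3 cells in every library, and a larger one in the CD45 libraries than in the CD4 libraries as sequenced. They made up 63 of 1051 Cd3 cells in Lag3KO_CD4 1 (5.99%, 95% Clopper-Pearson interval 4.64 to 7.6) and 39 of 1449 in Lag3KO_CD4 2 (2.69%, 1.92 to 3.66), against 70 of 1583 in WT_CD4 1 (4.42%, 3.46 to 5.55) and 36 of 1151 in WT_CD4 2 (3.13%, 2.2 to 4.3). In the CD45 libraries they made up 52 of 423 in Lag3KO_CD45 1 (12.3%, 9.32 to 15.8), against 24 of 366 in WT_CD45 1 (6.56%, 4.25 to 9.6) and 53 of 472 in the library labelled WT_CD45 2 (11.2%, 8.53 to 14.4). Intervals cover counting error only. The Lag3KO_CD4 libraries lay outside the WT_CD4 libraries on both sides, and Lag3KO_CD45 1 lay above both WT_CD45 libraries with an overlapping interval.

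Detection of a pair of genes depends on depth, and Cd3 cells of the CD45 libraries were deeper. Other Cd3 cells had a median of 2086.5 to 2545 UMIs under CD4 enrichment and of 3355 to 3745 UMIs under CD45 enrichment. With each cell thinned to 1500 UMIs, the cycling share was 3.54% in Lag3KO_CD4 1 and 2.2% in Lag3KO_CD4 2, against 2.74% in WT_CD4 1 and 1.56% in WT_CD4 2. It was 5.2% in Lag3KO_CD45 1, against 5.72% in the library labelled WT_CD45 2 and 1.91% in WT_CD45 1. Thinning left out 127 to 342 shallower cells per CD4 library and none of the CD45 libraries, and after it the CD4 and CD45 libraries overlapped.

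**Figure D1:**
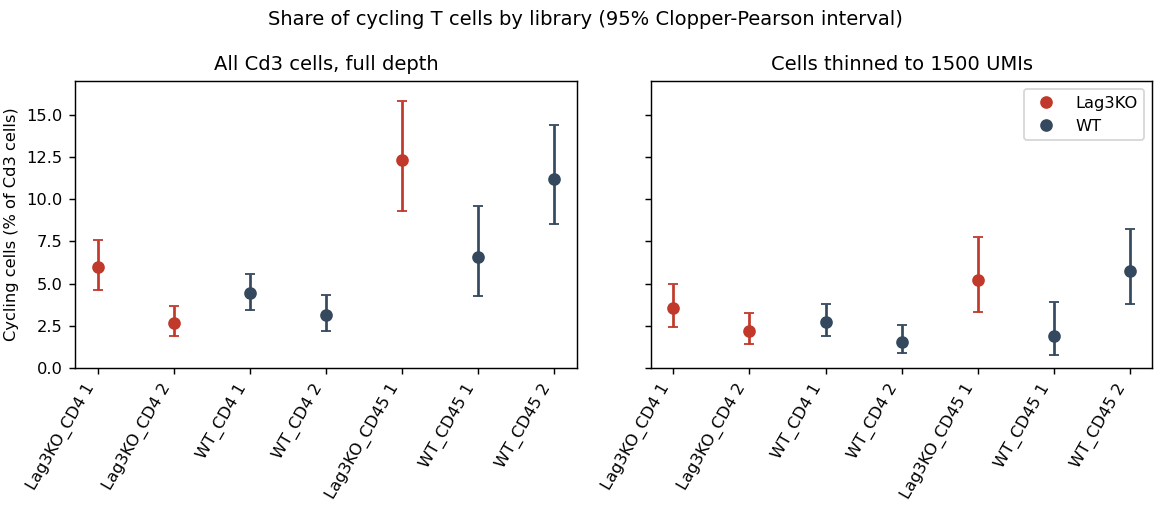
Cycling cells as a percent of Cd3 cells (y axis) in each of the 7 libraries (x axis), at full depth (left) and thinned to 1500 UMIs per cell (right), with points for the shares and bars for 95% Clopper-Pearson intervals. The CD45 libraries lie at 6.56% to 12.3% at full depth and at 1.91% to 5.72% after thinning, where they overlap the CD4 libraries.

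The cycling share did not differ between genotypes beyond the spread of libraries. The mean share was 4.34% ± 2.34 in Lag3KO_CD4 and 3.77% ± 0.915 in WT_CD4 libraries (SD, n = 2 each), and 12.3% in Lag3KO_CD45 (n = 1) and 8.89% ± 3.3 in WT_CD45 libraries (SD, n = 2). Lag3KO minus WT was 1.78 percentage points (two-sided exact permutation within sort, p = 0.444, adjusted p = 0.778 over 5 measures), and 0.0556 is the smallest p that the 18 arrangements allow. After thinning, the difference was 1.01 points (two-sided exact permutation, p = 0.5, adjusted p = 0.778). Without the library labelled WT_CD45 2, it was 2.29 points at full depth and 1.58 points after thinning.

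Other cell classes give the level at which the same 5 genes were detected outside T cells. Among barcodes with at least 5 UMIs of the B cell genes Cd79a, Cd79b and Ms4a1 and no Cd3 UMI, 3 of 161 (1.86%, 0.386 to 5.35) met the cycling rule in the CD45 libraries, at a median of 3221 UMIs, and 0 of 11 (up to 28.5%) in the CD4 libraries. Among barcodes with at least 3 UMIs of Siglech, a marker of plasmacytoid dendritic cells, 1 of 220 (0.455%, 0.0115 to 2.51) met it in the CD45 libraries, at a median of 4712.5 UMIs, and 3 of 53 (5.66%, 1.18 to 15.7) in the CD4 libraries. Barcodes rich in the neutrophil genes S100a8 and S100a9 met it in 0 of 67 and 0 of 39 cells in the Lag3KO_CD4 libraries, with upper 95% bounds of 5.36% and 9.03%, against 1 of 49 and 0 of 34 cells in the WT_CD4 libraries, with an upper bound of 10.3% for the last. In the CD45 libraries they met it in 4 of 18 cells of Lag3KO_CD45 1, against 9 of 28 of WT_CD45 1 and 3 of 10 of the library labelled WT_CD45 2, at medians of 7788 to 8648.5 UMIs. Levels outside T cells thus ranged from under to over the T cell shares of the CD45 libraries, and the part of free RNA in those shares was not tested. The shares of the CD4 libraries lay within the interval of the plasmacytoid dendritic cells of the same sort, and so cannot be set above that level.

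The cycling cells matched their name in genes that the rule did not use, although these genes come from the same cells and are given without a test. Stmn1, which destabilizes microtubules for spindle assembly, had a UMI in 93.7% and 89.7% of cycling cells in the Lag3KO_CD4 libraries and in 85.7% and 88.9% in the WT_CD4 libraries. It had one in 92.3% in Lag3KO_CD45 1, against 98.1% in the library labelled WT_CD45 2 and 79.2% in WT_CD45 1. Other Cd3 cells had a Stmn1 UMI in 3.23% to 13.5% of cells. Its level in cycling cells was 969.2 and 1246.1 CPM in Lag3KO_CD4, 1241.7 and 1096.9 CPM in WT_CD4, 922 CPM in Lag3KO_CD45 and 748.5 and 1278.2 CPM in WT_CD45 libraries. Other Cd3 cells had 17.3 to 76.5 CPM, so the lowest cycling level lay far above the highest of the others.

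Of the 5 defining genes, Birc5 was detected in 66.7% to 92.3% of cycling cells and Top2a in 79.2% to 86.5%. Ube2c was detected in 58.3% to 75%, Mki67 in 52.4% to 76.9% and Cdk1 in 45.8% to 63.9%. In other Cd3 cells, Top2a was detected in 3.05% to 9.79% and each of the other four in at most 4.04%. By rule, these genes separate the cells, so the values are a description.

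Cells near the threshold were shallower and carried lower levels of other cycle genes. Of all Cd3 cells, 5552 had no defining gene, 606 had 1, 94 had 2, 68 had 3, 84 had 4 and 91 had all 5. Top2a alone accounted for 305 of the 606 cells just outside the threshold. The median UMI count was 2498.5, 3801, 5710.5, 7449, 8048 and 8216 in cells with 0 to 5 of the genes. Stmn1 was at 111 CPM in cells with 1 gene, 479 CPM in those with 2 and 1343.1 CPM in those with 5.

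The 2 phase lists changed at different steps of that order. The order counts genes that act late in the cycle, so it favours the G2 and M list over the S list. The summed level of 38 S phase genes was 829.2, 1250.5, 2715.4, 4538.2, 4549.3 and 4437.6 CPM in cells with 0 to 5 defining genes, and so was level from 3 genes on. The summed level of 51 genes of the G2 and M phases, from which the defining genes were left out, was 1354.4, 1646, 3842.7, 5715.2, 8839.1 and 11384.1 CPM, and grew through to 5 genes. Tcf7, a factor of resting T cells, was at 155.2 CPM in cells with no defining gene, 104.4 CPM in those with 1 and 43.8 to 60.4 CPM in those with 2 or more.

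**Figure D2:**
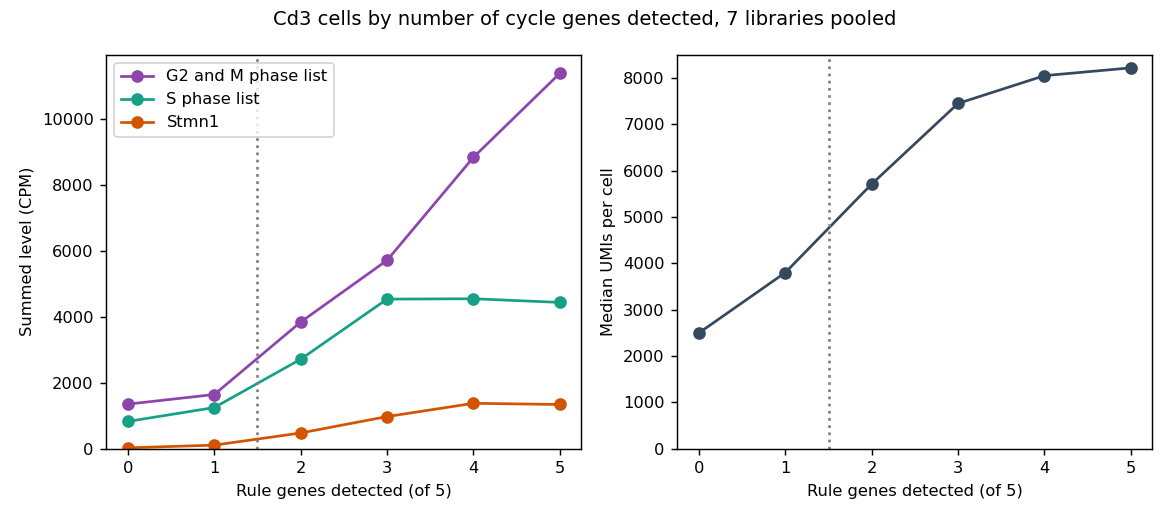
Left, summed CPM (y axis) of the G2 and M phase list, the S phase list and Stmn1 in Cd3 cells by the number of defining genes detected (x axis), 7 libraries pooled; right, median UMIs per cell. The dotted line is the threshold of the rule; S phase RNA is level from 3 genes on at 4437.6 to 4549.3 CPM, and G2 and M phase RNA grows to 11384.1 CPM.

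Cycling cells held more RNA than other Cd3 cells. Their median was 8279 and 6821 UMIs in the Lag3KO_CD4 libraries and 6137 and 7651 in the WT_CD4 libraries, and 7610 in Lag3KO_CD45 1, against 9085 and 6785 in the WT_CD45 libraries. This was 2.02 to 3.27 times the median of other Cd3 cells in the same library. The median number of genes detected was 2113.5 to 2562 in cycling cells and 960.5 to 1381 in the others. The rule favours deep cells, since they detect more genes, and how much of this difference it made was not tested. All 3 Cd3 genes were detected in 91.1% of the cycling cells, at a median of 17 Cd3 UMIs, against 8 in other Cd3 cells. A score from simulated doublets marked 221 of 13922 barcodes, 81 Cd3 cells and 7 cycling cells, which were kept.

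Set against other Cd3 cells of the same library, S phase genes were higher in cycling cells nearly throughout. Of the 38 genes, 35 were higher in 7 of 7 libraries, where 984 of 16530 genes with a UMI (5.95%) and 367 of the 1550 genes of at least 100 CPM (23.7%) were. The list median was 1.59 on the log2 scale of CPM plus 10, against -0.00 over those 1550 genes. The rule chose cells by the same contrast, so this and the following lists are described without a test. The largest difference was in 2810417H13Rik, which encodes a PCNA-binding clamp factor, at 589.7 and 862.7 CPM in Lag3KO_CD4, 788.2 and 659.4 CPM in WT_CD4, 648.2 CPM in Lag3KO_CD45 and 576.8 and 927.7 CPM in WT_CD45 cycling cells. Other Cd3 cells held 8.53 to 33.4 CPM of it, a median log2 ratio of 4.71. Rrm2, a subunit of the enzyme that makes deoxynucleotides, was at 162.9 to 362.8 CPM in cycling cells and 6 to 11.6 CPM in others (3.84), and Tyms, thymidylate synthase, at 105.7 to 225.8 CPM and 18.6 to 23.3 CPM (2.39). The helicase subunits Mcm2, Mcm3, Mcm5, Mcm6 and Mcm7 were higher in 7 of 7 libraries, by 0.94 to 1.86, and Mcm4 in 6. Ung, which removes uracil from DNA, was higher in 4 libraries and Dscc1 in 6.

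Genes of the G2 and M phases gave larger ratios. Of the 51 genes, 48 were higher in 7 of 7 libraries, with a list median of 2.11 on the same log2 scale. Cdca3, a trigger of mitotic entry, had a median ratio of 4.34, Ccna2, cyclin A2, one of 4.24, and Ccnb2, cyclin B2, one of 3.80. Ccna2 was at 160.7 and 297.8 CPM in Lag3KO_CD4, 250 and 231.2 CPM in WT_CD4, 154 CPM in Lag3KO_CD45 and 92.5 and 200.3 CPM in WT_CD45 cycling cells, against 0 to 1.13 CPM in other Cd3 cells. Nusap1 and Cenpf, which bind spindle microtubules and kinetochores, had ratios of 3.78 and 3.51, and Cdc20, an activator of the anaphase-promoting complex, one of 3.44. The 3 genes not higher throughout were Ttk, Gas2l3 and Ctcf, each higher in 6 of 7 libraries.

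The RNA of building material was higher as well. All 14 genes of the tubulin and chromatin list were higher in 7 of 7 libraries, with a list median of 2.01; their summed level was 13116.8 to 17822.5 CPM in cycling cells and 4313.3 to 4739.6 CPM in others. Tuba1b, an alpha tubulin, was at 1121.1 to 1578.1 CPM in cycling cells and 122 to 292.3 CPM in others, and Hmgb2, a chromatin protein counted with the G2 and M list, at 2141.5 to 3493.6 CPM and 356.3 to 765.1 CPM. Of 17 core and linker histone genes, 10 were higher in 7 of 7 libraries. Hist1h2ap, a histone H2A gene, was at 356.6 and 291 CPM in Lag3KO_CD4 and 223.8 and 365.6 CPM in WT_CD4 cycling cells, but at 3.8 CPM in Lag3KO_CD45 and 22 and 9.54 CPM in WT_CD45 cycling cells. Histone genes of a cluster are near copies of each other and their transcripts mostly lack poly(A) tails, so these levels are uncertain, and the 2 sorts were processed with different gene lists.

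**Figure D3:**
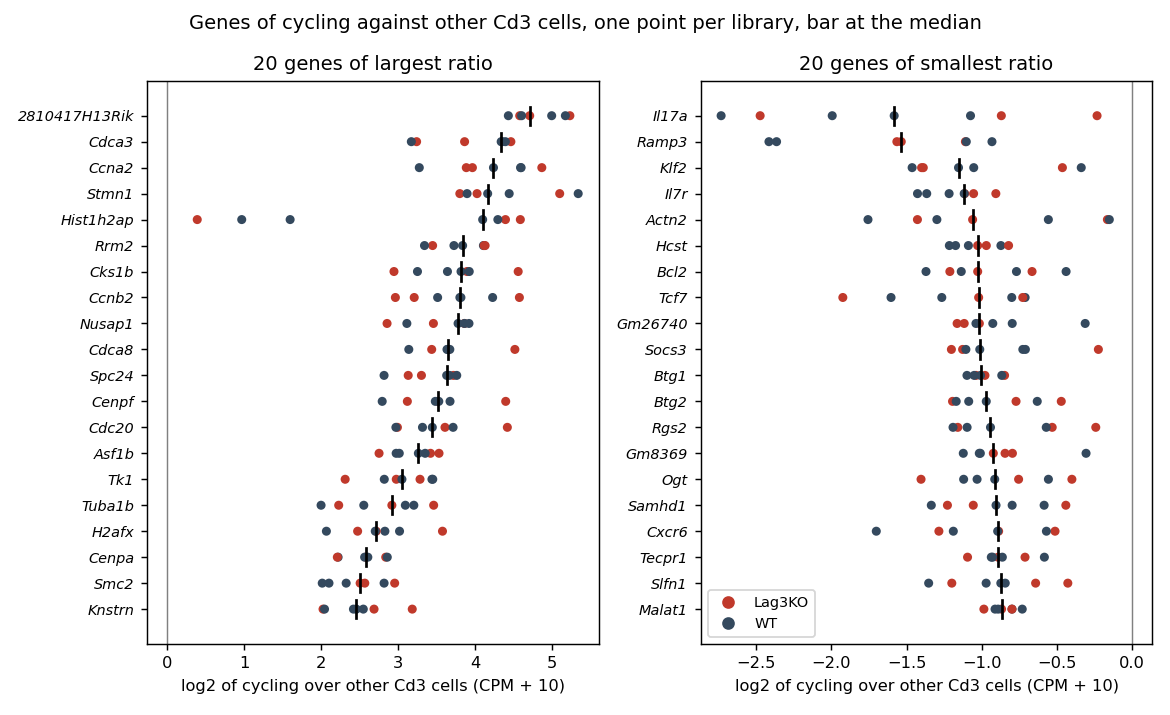
The log2 ratio of CPM plus 10 in cycling over other Cd3 cells (x axis) for the 20 genes of largest and the 20 of smallest median ratio (y axis), with 1 point per library and a bar at the median of 7. Ratios reach 4.71 for 2810417H13Rik and -1.58 for Il17a, and Hist1h2ap lies apart in the 3 CD45 libraries.

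Resting T cell genes were lower in cycling cells. Of 8 such genes, 5 were lower in 7 of 7 libraries, where 826 of 16530 genes (5%) and 267 of the 1550 genes of at least 100 CPM (17.2%) were: Klf2 and S1pr1, which govern exit from lymphoid tissue, Tcf7, Satb1 and Il7r, the receptor for IL-7. Il7r was at 132.4 and 188.3 CPM in Lag3KO_CD4, 133 and 115.6 CPM in WT_CD4, 77.9 CPM in Lag3KO_CD45 and 57.2 and 88.2 CPM in WT_CD45 cycling cells. Other Cd3 cells held 163.2 to 419 CPM, a median log2 ratio of -1.12, and the ranges overlapped between libraries although every library had the same direction. Bcl2, a survival factor, had a ratio of -1.03, with 58.9 to 227.8 CPM in cycling cells and 149.6 to 470.6 CPM in others.

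Brakes on division went both ways. Of 12 inhibitors, Btg1 (-1.01), Btg2 (-0.97), Klf2 (-1.15) and Tob1 (-0.53) were lower in 7 of 7 libraries. Cdkn3 (2.77), Cdkn2c (1.48), Cdkn2d (0.93) and Cdkn2a (0.77) were higher in 7 of 7. Btg1 was at 553.3 to 831.9 CPM in cycling cells and 1020.7 to 1718.1 CPM in others, with no overlap. Cdkn2c, the inhibitor p18 of the G1 kinases, was at 63.6 to 140.7 CPM in cycling cells and 16.9 to 29.3 CPM in others, also with no overlap. Cdkn1b, the inhibitor p27, was lower in 6 of 7 libraries (-0.47). Among 12 genes of entry into the cycle, Ccne1, Ccne2, E2f1, E2f2, Cdk2 and Cdk4 were higher in 7 of 7 libraries and Ccnd2, cyclin D2, was lower in 7 of 7 (-0.56).

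Of 10 Th17 genes, 3 were lower and 0 higher in 7 of 7 libraries, and of 8 Th1 genes, 0 were lower and 1 was higher. Among all genes of at least 100 CPM, 17.2% were lower and 23.7% higher in 7 of 7. Among all genes with a UMI, 5% were lower and 5.95% higher. Il17a, the defining cytokine of Th17 cells, was at 17.7 and 58.2 CPM in Lag3KO_CD4, 36.3 and 3.12 CPM in WT_CD4, 24.7 CPM in Lag3KO_CD45 and 17.6 and 50.1 CPM in WT_CD45 cycling cells. Other Cd3 cells held 40.6 and 70.1 CPM in Lag3KO_CD4, 87.5 and 42.3 CPM in WT_CD4, 182.9 CPM in Lag3KO_CD45 and 173.7 and 170 CPM in WT_CD45 libraries, so that the median ratio of -1.58 spans -2.73 to -0.23. Il23r, a cytokine receptor subunit of the same cells, was also lower in 7 of 7 libraries. Its levels were at most 2.38 CPM in cycling and 1.61 to 4.53 CPM in other Cd3 cells, under the pseudocount of 10 CPM. Ifng was lower in 6 of 7 libraries (-0.98), whereas Tbx21, the Th1 master factor, was higher in 6 of 7 (0.30) and Gzmb, granzyme B, in 4 of 7 (0.46). Il12rb2, a receptor subunit of Th1 cells, was higher in 7 of 7, by 0.34, at 13.2 to 37.7 CPM. Cxcr6, a chemokine receptor of tissue T cells, was at 145.5 to 356.6 CPM in cycling cells and 306.1 to 512.7 CPM in others (-0.89). Pdcd1 and Cd96, inhibitory receptors, were lower in 7 of 7 libraries, at -0.63 and -0.61 on the log2 scale, and Havcr2, another, was higher in 7 of 7 (0.22).

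Type I interferon genes were lower in 7 of 7 libraries for 6 of 12: Ifit1, Ifit3, Irf7, Bst2, Ifi203 and Zbp1, with a list median of -0.60. Among all genes of at least 100 CPM, 17.2% were lower in 7 of 7, and 5% of all genes with a UMI. Of 12 genes of IL-2 and STAT5 signalling, Il2rg, Socs3, Bcl2 and Il7r were lower in 7 of 7. Il2ra, the high-affinity IL-2 receptor chain, was at 134.2 and 130.1 CPM in Lag3KO_CD4, 187.5 and 109.4 CPM in WT_CD4, 77.9 CPM in Lag3KO_CD45 and 44 and 135.9 CPM in WT_CD45 cycling cells, and was higher than in other Cd3 cells in 6 of 7 libraries (0.35). Of 12 glycolysis genes, Gapdh was higher in 7 of 7 libraries (0.51) and Aldoa lower in 7 of 7 (-0.11), and the list median was 0.09. CPM are shares of each library's RNA, so a gene with the same number of UMIs per cell in both states would be lower on this scale in the deeper cycling cells.

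RNA of other cell types was present in some cycling cells. Their summed level of 8 myeloid genes was 669.2 to 12873.1 CPM, against 654.5 to 13519.1 CPM in other Cd3 cells, and none of the 8 was higher or lower in 7 of 7 libraries. Over 60 UMIs of Lyz2, C1qb and Cd74 per 10000 were found in 38 cycling cells. Their share was higher than in other Cd3 cells in 6 of 7 libraries, at 2.86% to 29.2% against 0.628% to 24.3%, and lower in the library labelled WT_CD45 2, at 5.66% against 14.3%. At least 2 UMIs of B cell genes were in 14 cycling cells, a share above that of other Cd3 cells in 3 libraries and below it in 4, and an NK cell gene was in 5. The neutrophil list summed to 3659.3 CPM in Lag3KO_CD45 1 and 5018.7 CPM in WT_CD4 2, and to 21.2 to 330.2 CPM in the other cycling pools; 1 cell in each of these 2 libraries, at 776.4 and 907.1 S100a8 and S100a9 UMIs per 10000, carried it. Defining microglial genes ranged over 60.5 to 914.3 CPM in cycling cells, and Sall1 among them was at 0 to 9.5 CPM. The part of this RNA in the lists above was not tested.

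The cycling cells were of mixed T cell kinds. Cd4 alone was detected in 166 of 337, Cd8a or Cd8b1 alone in 41, both coreceptors in 23 and neither in 107. The Cd8-only cells numbered 0 of 63 and 6 of 39 in the Lag3KO_CD4 libraries, against 3 of 70 and 1 of 36 in the WT_CD4 libraries. They numbered 10 of 52 in Lag3KO_CD45 1, against 7 of 24 and 14 of 53 in the WT_CD45 libraries. Trdc, a gamma delta T cell receptor gene that only the CD45 files list, marked 5 cells of those libraries. These are already counted above, among the cells that were not Cd8-only.

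Cells with Foxp3 or Ikzf2, 2 transcription factors of regulatory T cells, made up 117 of the 337 (34.7%), against 25.8% of all Cd3 cells. These cells are called by their genes here, since Ikzf2 alone set most of them: Foxp3 had 0 to 2 UMIs in cycling cells of each of 6 libraries. In the library labelled WT_CD45 2 it had 30 UMIs in 17 of 53 cycling cells, 71.5 CPM, against 36.3 CPM in its other Cd3 cells. Ikzf2 was detected in 33.3% to 54.2% of the deeper cycling cells and 22.2% to 32.1% of others. Its level in cycling cells was 88.3 and 188.3 CPM in Lag3KO_CD4, 231.8 and 209.4 CPM in WT_CD4, 144.5 CPM in Lag3KO_CD45 and 202.5 and 362.5 CPM in WT_CD45 libraries. Against other Cd3 cells this was lower in 5 libraries and higher in both WT_CD45 libraries.

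Among the 174 cycling cells outside the Cd8, Trdc and Foxp3 or Ikzf2 gates, 133 had at least 2 UMIs of Ccl5 and Nkg7, 125 had Cxcr6 and 113 had a Th1 gene (Ifng, Tbx21, Cxcr3 or Il12rb2). A resting gene (such as Tcf7, Lef1 or Ccr7) was in 106, Tnfrsf4 or Tnfrsf9 in 95, Pdcd1 in 56, at least 2 interferon genes in 29, a Th17 gene in 26 and Csf2, which encodes GM-CSF, in 14. Of all 4339 Cd3 cells outside the first 3 gates, 2151 had at least 2 UMIs of Ccl5 and Nkg7. Of the same cells, 2362 had Cxcr6 and 1895 a Th1 gene. A resting gene was in 2148 and Tnfrsf4 or Tnfrsf9 in 1902 of them. Pdcd1 was in 929, at least 2 interferon genes in 820, a Th17 gene in 464 and Csf2 in 156. These gates overlap each other and depend on depth, and cycling cells were deeper.

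Which kinds cycled more often was tested in cells thinned to 1500 UMIs, with the share inside each gate set against the share outside it in the same library. For the Cd8 and the Foxp3 or Ikzf2 gates, outside meant all other Cd3 cells; for the other 8 gates, both sides were taken from the cells outside the Cd8, Trdc and Foxp3 or Ikzf2 gates. None of 10 gates passed after adjustment (two-sided exact sign-flip permutation over libraries, Benjamini-Hochberg), and 2 had an unadjusted p under 0.05. The smallest p that this permutation allows over 7 libraries is 0.0156. For a gate alone, adjustment over 10 gates lifts that p above 0.05. The lack of a call therefore does not show that the gates cycled alike. Cells with a resting gene cycled in 1.76% ± 1.49, against 3.67% ± 1.32 of the other cells outside those 3 gates (SD, n = 7 libraries), a difference of -1.91 points, lower in 6 of 7 libraries (exact permutation p = 0.0312, adjusted p = 0.234). By library these shares were 3.96% inside and 3.9% outside the gate in Lag3KO_CD4 1, 0.865% and 2.77% in Lag3KO_CD4 2, 1.4% and 3.59% in WT_CD4 1, and 0.355% and 2.43% in WT_CD4 2. They were 2.9% and 5.85% in Lag3KO_CD45 1, 0% (up to 5.52%) and 2.3% in WT_CD45 1, and 2.86% and 4.86% in the library labelled WT_CD45 2. Cells with Cxcr6 cycled in 2.21% ± 1.15, against 3.8% ± 1.96 (SD, n = 7), also lower in 6 of 7 libraries (exact permutation p = 0.0469, adjusted p = 0.234).

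Full depth, where gate and cycling call are both read from cells of unequal depth, gave the opposite sign for some gates. Without thinning, cells with a resting gene cycled in 6.82%, against 3.69% of the same comparison cells, higher in 7 of 7 libraries (exact permutation p = 0.0156, the smallest that 128 arrangements allow, adjusted p = 0.0521). Cells with Cxcr6 then cycled in 5.48%, against 5.29%. Cells with at least 2 UMIs of Ccl5 and Nkg7 cycled in 7.16%, against 2.54%, at full depth and in 3.22%, against 3%, after thinning.

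Cells with Foxp3 or Ikzf2 cycled in 4.69% ± 3.49 after thinning, against 3.08% ± 1.52 of other Cd3 cells (SD, n = 7; exact permutation p = 0.25, adjusted p = 0.5). In the CD4 libraries the share was lower inside the gate in 4 of 4, at 2.5% and 2.02% in Lag3KO_CD4 and 2.28% and 1.31% in WT_CD4 libraries, against 3.71% and 2.24% in Lag3KO_CD4 and 2.86% and 1.64% in WT_CD4 libraries outside it. In the CD45 libraries it was higher inside in 3 of 3, at 10.2% in Lag3KO_CD45 1 and 6.82% and 7.69% in the WT_CD45 libraries, against 4.55%, 1.24% and 5.33% outside. Those 3 values rest on 5 of 49, 3 of 44 and 6 of 78 cells inside the gate. At full depth the share inside was higher in 7 of 7 libraries, at a mean of 10.2%, against 5.64% (exact permutation p = 0.0156, adjusted p = 0.0521).

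Cells of the Cd8 gate cycled in 3.97% ± 4.08 after thinning, against 3.19% ± 1.43 of other Cd3 cells (SD, n = 7; exact permutation p = 0.578, adjusted p = 0.642). They cycled in 0 of 40 and 3 of 47 cells in the Lag3KO_CD4 libraries, against 2 of 37 and 0 of 20 in the WT_CD4 libraries. In Lag3KO_CD45 1 it was 3 of 54, against 0 of 52 and 7 of 67 in the WT_CD45 libraries. The upper 95% Clopper-Pearson bounds of the shares at 0 were 8.81% in Lag3KO_CD4 1, 16.8% in WT_CD4 2 and 6.85% in WT_CD45 1. Without the library labelled WT_CD45 2, the mean difference was -0.00372 points. Cells with Trdc cycled in 1 of 63 in Lag3KO_CD45 1, against 0 of 31 and 0 of 10 in the WT_CD45 libraries, too few to test.

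**Figure D4:**
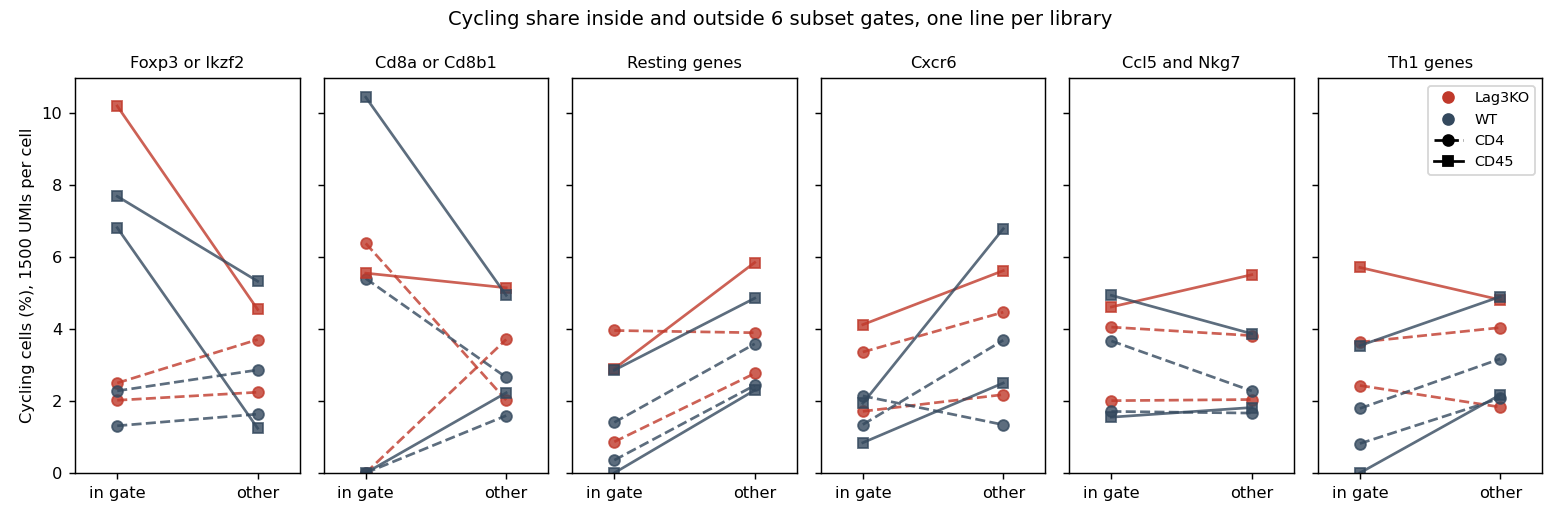
Cycling cells as a percent of cells (y axis), inside and outside 6 gates (x axis) at 1500 UMIs per cell, with 1 line per library; circles and dashes are CD4 libraries, squares and full lines CD45 libraries. The Foxp3 or Ikzf2 lines slope down to the right in the 3 CD45 libraries and up in the 4 CD4 libraries, and those of the resting genes slope up in 6 of 7.

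Genotype was compared in the make-up of the cycling cells. The Foxp3 or Ikzf2 gate held 33.3% and 30.8% of them in the Lag3KO_CD4 libraries, against 40% and 36.1% in the WT_CD4 libraries, and 30.8% in Lag3KO_CD45 1, against 37.5% and 34% in the WT_CD45 libraries. Lag3KO lay below WT without overlap within each sort, by -5.56 points on average (two-sided exact permutation within sort, p = 0.111, adjusted p = 0.555 over 5 measures). The difference was -12.1 points with at least 3 defining genes (exact permutation p = 0.167). With the myeloid limit at 60 per 10000 it was -10.5 points (exact permutation p = 0.111). It was -5.67 points with at least 3 Cd3 UMIs, -5.62 with doublets removed and -6.46 to -4.51 with each library left out. Among all Cd3 cells the same gate held 22.5% and 22% in Lag3KO_CD4, against 31.5% and 31.6% in WT_CD4, and 19.1% in Lag3KO_CD45, against 20.2% and 21.6% in WT_CD45 libraries. The Cd8 gate differed by -1.29 points (exact permutation p = 0.778, adjusted p = 0.778). Without the library labelled WT_CD45 2 these differences were -6.25 and -0.538 points.

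The balance of phases was given by the log2 ratio of the G2 and M list to the S list. It was 1.02 and 1.40 in Lag3KO_CD4, against 0.86 and 0.96 in WT_CD4 libraries, and 0.69 in Lag3KO_CD45 1, against 0.83 and 0.92 in the WT_CD45 libraries. Lag3KO was above WT in the CD4 libraries and below it in the CD45 libraries, and the difference over both was 0.09 on the log2 scale (exact permutation p = 0.722, adjusted p = 0.778). Without Lag3KO_CD4 2, the library of the highest ratio, it was -0.04.

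**Figure D5:**
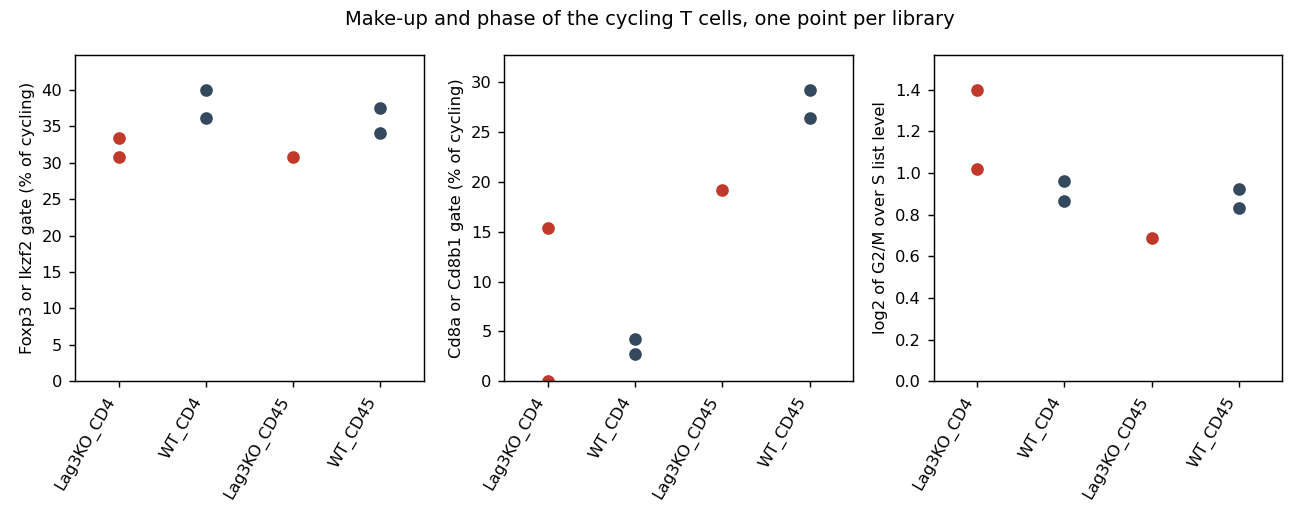
Share of cycling cells in the Foxp3 or Ikzf2 gate and in the Cd8 gate (percent), and log2 ratio of the G2 and M list to the S list (y axes), with 1 point per library in 4 groups (x axis). Lag3KO points of the first panel lie at 30.8% to 33.3% and WT points at 34% to 40%.

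No single gene passed the test of genotype within the cycling cells. Counts were summed over the cycling cells of each library and tested with edgeR's quasi-likelihood test with the sort as a term, over 5032 genes. None passed at a Benjamini-Hochberg adjusted p of 0.05 (0% called), 189 had an unadjusted p under 0.05 (3.76%), and 519 did not overlap between genotypes within each sort (10.3%). DESeq2 also called 0, with 47 at an unadjusted p under 0.05. No gene of any fixed list was called. The pools held 24 to 70 cells.

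No cell cycle gene passed the test of genotype. Of 34 S phase genes tested, 9 were positive and 25 negative for Lag3KO over WT, with a median of -0.10 on the log2 scale, and of 42 G2 and M phase genes, 17 were positive and 25 negative, with a median of -0.04; over all 5032 genes 2474 were positive and the median was -0.01. Among the 5 regulatory T cell genes tested, 0 were positive (median -0.22). Ikzf2 was at 94.4 and 190.4 CPM of tested genes in Lag3KO_CD4, against 233.5 and 219.4 in WT_CD4, and at 156 in Lag3KO_CD45 1, against 227.9 and 386.1 in the WT_CD45 libraries. Its log2 difference was -0.84 ± 0.25 (SE; edgeR unadjusted p = 0.00537, adjusted p = 1), so it lay lower in each Lag3KO library without passing. The type I interferon list had 10 of 11 genes positive (median 0.24), and 0 of the 11 were without overlap. Its sum in cycling cells was 1952.6 and 7428.9 CPM in Lag3KO_CD4, against 2539.9 and 3865.6 CPM in WT_CD4. In Lag3KO_CD45 1 it was 3220.2 CPM, against 3487.2 and 3004.7 CPM in WT_CD45. The myeloid list had 8 of 8 positive (median 0.59), and 1 was without overlap. Its sum was 2279.2 and 2393 CPM in Lag3KO_CD4, against 669.2 and 3003.1 CPM in WT_CD4. In Lag3KO_CD45 1 it was 12873.1 CPM, against 9633.9 and 4407 CPM in WT_CD45. No gene of these lists passed the test.

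Genotype was also compared between the CD4 libraries only, from a fit to all 7 libraries. The CD45 libraries thus entered the gene filter and the p-values, which are not those of a test on 4 libraries. In this comparison 1 of 5032 genes was called (0.0199%) and 124 had an unadjusted p under 0.05 (2.46%). Levels of 1523 genes (30.3%) did not overlap between genotypes in the CD4 libraries. The called gene was Tpm3, a tropomyosin of the actin cytoskeleton, at 86.8 and 69.2 CPM of tested genes in Lag3KO_CD4, against 379.8 and 478.1 in WT_CD4 cycling cells. Its log2 difference was -2.43 ± 0.27 (SE; edgeR adjusted p = 0.00238), and leaving out either Lag3KO_CD4 library ended the call, at -2.62 without replicate 1 (edgeR adjusted p = 0.238) and -2.28 without replicate 2 (edgeR adjusted p = 0.077). Tpm3 shares its sequence with a near-identical copy, Tpm3-rs7, which ran the other way in the CD4 libraries. Per 1000000 UMIs, Tpm3-rs7 was at 301.9 and 308.1 CPM in Lag3KO_CD4, against 2.02 and 18.7 CPM in WT_CD4 cycling cells. The sum of both was 383.1 and 376.6 CPM in Lag3KO_CD4, against 379 and 475 CPM in WT_CD4, and other Cd3 cells held the same split, with sums of 350 and 378.7 CPM against 352.6 and 389 CPM. In the CD45 libraries Tpm3-rs7 was at 129.3 CPM in Lag3KO_CD45 1, against 246.6 and 19.1 CPM in the WT_CD45 cycling cells, so the split did not follow genotype there. The level of Tpm3 by itself is therefore uncertain.

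Whether the genotype difference was itself another one in cycling than in other Cd3 cells was tested with the library as a block over 8627 genes. DESeq2 called 0, with 49 at an unadjusted p under 0.05. With edgeR none passed either (0% called, 331 at an unadjusted p under 0.05, 3.84%). For 867 genes (10%), levels in cycling cells did not overlap between genotypes within each sort. That count takes in no level of other Cd3 cells. The smallest adjusted p, 0.0835, was that of Xcl1, a chemokine of activated T cells, which was chosen here after its values were seen. Its difference between states was -3.38 ± 0.49 on the log2 scale (SE; Lag3KO over WT in cycling minus that in other Cd3 cells). In cycling cells Xcl1 was at 3.53 and 6.85 CPM in Lag3KO_CD4, against 50.4 and 0 CPM in WT_CD4, and at 38 CPM in Lag3KO_CD45 1, against 418.3 and 147.9 CPM in the WT_CD45 libraries. In other Cd3 cells it was at 7.69 and 6.45 CPM in Lag3KO_CD4, against 14.1 and 3.82 CPM in WT_CD4, and at 167 CPM in Lag3KO_CD45 1, against 101.5 and 74.8 CPM in the WT_CD45 libraries. Its UMIs came from few cycling cells, and the 95 UMIs of WT_CD45 1 from 1 cell.

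Lag3 itself was detected in cycling cells of WT libraries at levels like those of other Cd3 cells or lower. It had 21 UMIs in 10 of 70 cycling cells of WT_CD4 1, 2 UMIs in 2 of 36 of WT_CD4 2 and 8 UMIs in 5 of 24 of WT_CD45 1. Cycling cells were at 42.3, 6.25 and 35.2 CPM in these libraries, against 49, 12.9 and 50.5 CPM in other Cd3 cells. The share of cells with a Lag3 UMI was 14.3%, 5.56% and 20.8% of cycling cells, against 6.08%, 2.42% and 13.5% of the shallower other cells. Cycling cells of the 3 Lag3KO libraries and of the library labelled WT_CD45 2 held 0.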

How the data were processed

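Droplet single-cell RNA sequencing (10x 3′ v2) was run on 7 libraries. The deposited values are UMI counts per gene and barcode from the authors' Cell Ranger run, per the submitters' processing notes; Seurat is also named there, with no role. The matrix headers of the CD4 libraries give Cell Ranger 3.0.2, with 27998 genes listed, and the CD45 files list 28692. The 27998 common genes were used, and Trdc in the CD45 libraries only. Some genes of the lists and gates are counted there and not reported here by name. The members and gene lists were chosen with earlier results of these data known, and the B cell and plasmacytoid dendritic cell classes after seeing the values of neutrophils.

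CPM divide summed counts by the UMIs of the common genes; CPM of tested genes divide by TMM-scaled totals. Cells of under 1500 UMIs were left out of thinning. Shares were compared over libraries with two-sided exact permutation tests. Gates needed 20 cells on both sides in at least 5 libraries. Sums over cycling cells were tested with edgeR 4.0.16 (quasi-likelihood, TMM, filterByExpr, adjusted p under 0.05), with DESeq2 1.42.0 as the other tool, checked on simulated counts. Genes named are those of the fixed lists, the 20 of largest and smallest ratio with the same sign in 7 libraries among those of at least 100 CPM, and called genes whose groups did not overlap; the pseudocount was 10 CPM. Doublets were scored against simulated pairs, at 0.8% per 1000 barcodes. Alternatives were 3 defining genes, 3 Cd3 UMIs, a myeloid limit of 60, doublets removed, thinning to 1000 or 2000 UMIs or none, no count filter, DESeq2 and its size factors, no sort term, and each library left out. Python 3.11.15, scipy 1.17.1 and R 4.3.3 were used.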

Additional observations from a re-analysis of the deposited data

Results flagged for a closer look

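The G2 and M to S list ratio differed in direction between the sorts: Lag3KO minus WT was 0.30 on the log2 scale in the CD4 libraries, where both Lag3KO libraries lay above both WT libraries, and -0.19 in the CD45 libraries, where the 1 Lag3KO library lay below both WT libraries. The difference between sorts was not tested.

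The cycling share of cells with Foxp3 or Ikzf2, minus that of other Cd3 cells, was -0.585 points in the CD4 libraries, lower in 4 of 4, and 4.53 points in the CD45 libraries, higher in 3 of 3, at 1500 UMIs per cell. The difference between sorts was not tested, and sort, sex and processing cannot be told apart.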

How the results depend on the processing

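With each library left out in turn, Lag3KO minus WT was 0.568 to 2.81 points for the cycling share, 0.309 to 1.58 points for the thinned share, -0.0417 to 0.296 for the log2 phase ratio, -6.46 to -4.51 points for the Foxp3 or Ikzf2 make-up and -6.05 to 4.16 points for the Cd8 make-up; these designs cannot reach a p under 0.05. Calls of genes numbered 0 to 3 over both sorts, 0 to 2 in the CD4 libraries and 0 to 10 for the difference between cycling and other cells; the 10 came without WT_CD4 2. A lone library left in a group was assumed to vary like the others. With no count filter, 24 genes were called over both sorts, 5 in the CD4 libraries and 5 for the difference; the last was 2 with the myeloid limit of 60 and 1 with doublets removed. With 3 defining genes, the Cd8 make-up was 1.13 points, the Foxp3 or Ikzf2 make-up -12.1 points (-10.5 with the myeloid limit of 60), the thinned share difference 0.28 points and the log2 phase ratio 0.179. The thinned share difference was 0.267 points at 1000 UMIs and 0.658 at 2000. The Cd8 make-up was -0.427 points with the myeloid limit of 60 and -2 with doublets removed. The cause was not tested.

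No gate passed under any of these settings, but with so few libraries a gate on its own could not have passed the adjustment. Leaving a library out raises the smallest p that the permutation allows. The Foxp3 or Ikzf2 gate, 1.61 points above, was at 0.315 with 3 defining genes, 0.037 at 1000 UMIs and 1.07 at 2000; at 2000 UMIs the Th17 genes were at -3.45 and Cxcr6 at -3.39, and with 3 defining genes the resting genes were at -0.809 and Cxcr6 at -0.338. The interferon gate gave no value at 1000 UMIs or with the myeloid limit of 60. Signs turned, in points: with 3 defining genes, Cd8 -0.0902 and Tnfrsf4 or Tnfrsf9 0.132; with the myeloid limit of 60, Tnfrsf4 or Tnfrsf9 0.164; at 1000 UMIs, resting genes 0.075, Ccl5 and Nkg7 -0.546, Tnfrsf4 or Tnfrsf9 0.219 and Pdcd1 0.806; at 2000 UMIs, Th1 genes 0.758 and Pdcd1 0.529; without thinning, Th1 genes 3.52, resting genes 3.13, Cxcr6 0.183, Tnfrsf4 or Tnfrsf9 1.82 and Pdcd1 1.9. With each library left out, Tnfrsf4 or Tnfrsf9 ranged from -0.701 to 0.437 and Cd8 from -0.00372 to 1.53. The lower share of cells with a resting gene thus depends on the thinning. Thinned shares rest on 7 to 34 cycling cells per library. Lag3KO libraries could not be paired with WT libraries, because the labels give the groups no shared replicate numbers.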
